A study of Arabidopsis thaliana with 204 samples.

Results

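The GASA genes of Arabidopsis thaliana encode gibberellin-regulated peptides, and 7 of them were followed here by their loci: GASA1 (AT1G75750), GASA4 (AT5G15230), GASA5 (AT3G02885), GASA6 (AT1G74670), GASA9 (AT1G22690), GASA10 (AT5G59845) and GASA14 (AT5G14920). They are 7 of the 33602 loci in the table of normalized read counts. The plants were 28-day-old wild type Col-0, and the RNA came from 3 leaf sections, which were the leaf tip and the abaxial (lower) and adaxial (upper) side of the petiole base. In FRtip, far-red (FR) light was added to white light at the leaf tip, where it lowered the red to far-red ratio (R/FR) to 0.05. In white light (WL) alone, the R/FR was 2.0. All plants shared the ecotype and the growth conditions, and sections were taken between 40 and 300 min of treatment. Each sample pooled the sections of 13 leaves, so that a value is a mean over leaves and over all cell types of a section. In such bulk samples, fewer cells of a type and less RNA per cell cannot be told apart.

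GASA peptides are small secreted or wall-associated proteins with a conserved cysteine-rich end. Many of their genes are induced by gibberellin (GA) and some are repressed by it, and family members have been linked to cell division, cell elongation, flowering and germination. GA is perceived by GID1 receptors, which in its presence bind the DELLA repressors of growth and bring them to degradation through the F-box protein SLY1.

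Of 204 samples, 199 entered the tests, with 4 replicates for each section, treatment and time point and 3 for the leaf tip in WL at 40 min. The other 5 were petiole samples of 40 min in groups of fewer than 3. Between 805840 and 5538648 reads were counted on genes per sample. PIL1, an early marker of low R/FR, held 296 to 2626 normalized counts in the FRtip leaf tips, against 0 to 9.08 in the WL leaf tips. In the abaxial petiole at 100 to 180 min, PIL1 averaged 55.8 ± 13.4 in FRtip and 39.9 ± 8.68 in WL (SD, n = 20 each). Adaxially these values were 35.7 ± 8.51 and 33.1 ± 8.68. The abaxial difference passed the limma test (adjusted p = 0.00028) and the adaxial difference did not (adjusted p = 0.72). HAT4 and HFR1 were read beside PIL1 as genes of the FR response. In the same window HAT4 was higher in FRtip on both sides, by 0.32 abaxially and 0.26 adaxially on the log2 scale. Both differences passed the limma test (adjusted p = 2.5e-06 and 0.0015), and HFR1 passed on neither side (adjusted p = 0.51 and 0.67). A list of mesophyll markers summed to 63285 to 93593 normalized counts in the leaf tip, 16504 to 37469 in the abaxial and 30057 to 52362 in the adaxial petiole of 60 to 300 min, and an abaxial identity list reached a median of 609 in FRtip and 601 in WL abaxial samples, against 360 and 356 in FRtip and WL adaxial samples. A petiole library, abaxial FRtip replicate 1 at 60 min, stood between the sides. On an index over 500 genes, where the adaxial WL mean is 0 and the abaxial WL mean is 1, it lay at 0.49, while the other abaxial FRtip samples lay at 0.668 to 1.26 and the adaxial FRtip samples at -0.0999 to 0.196. No count of members called changed without it, and the values it moved are given beside the results.

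The promoters of GASA6, GASA9 and GASA14 are shown because these members passed the test in the leaf tip in each of the windows below. Each line gives the 250 bases before the annotated RefSeq start in the TAIR10.1 assembly, 5′ to 3′ on the strand of the gene. Capitals mark any match, on either strand, to CACATG (the PBE-box, a site known to bind PIF transcription factors), CACGTG (G-box), TGTCTC (an auxin response element), TAACAAA (a gibberellin response element) or AAAATATCT (the evening element). No such string contains another.
GASA6, chr1:28052780-28053029, plus strand: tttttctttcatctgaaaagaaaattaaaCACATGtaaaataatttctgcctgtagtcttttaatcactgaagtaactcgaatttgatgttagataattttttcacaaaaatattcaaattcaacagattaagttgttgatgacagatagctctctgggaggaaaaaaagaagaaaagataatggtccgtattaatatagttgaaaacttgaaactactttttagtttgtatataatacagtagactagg
GASA9, chr1:8026876-8027125, plus strand: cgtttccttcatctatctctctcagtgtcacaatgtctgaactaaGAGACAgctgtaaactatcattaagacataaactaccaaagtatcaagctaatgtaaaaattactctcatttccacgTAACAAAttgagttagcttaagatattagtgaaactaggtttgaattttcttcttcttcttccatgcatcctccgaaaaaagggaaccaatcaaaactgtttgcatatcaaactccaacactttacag
GASA14, chr5:4825891-4826140, plus strand: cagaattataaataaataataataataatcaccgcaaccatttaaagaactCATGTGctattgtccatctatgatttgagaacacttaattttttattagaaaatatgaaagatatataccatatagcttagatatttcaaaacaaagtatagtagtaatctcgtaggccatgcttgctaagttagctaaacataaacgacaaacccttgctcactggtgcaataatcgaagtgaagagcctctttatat

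The PBE-box letters stood 221 bases before the start of GASA6 and, as CATGTG, 199 bases before that of GASA14. GASA9 had no PBE-box match in this window, but it held GAGACA, the auxin element on the other strand, at 205 bases and TAACAAA at 128 bases. GASA4 also held CATGTG, and GASA1, GASA5 and GASA10 held none of the strings. Of all 27443 promoters of this length, 11.09% had the PBE-box letters, 10.95% the auxin element, 16.15% the gibberellin element, 6.486% the G-box and 2.361% the evening element. These matches describe the letters only. GASA6 spans chr1:28053030-28054149 in 3 exons, GASA9 chr1:8027126-8028168, and GASA14 chr5:4826141-4828384. GASA6 overlaps AT1G74675 on the other strand by 206 bases and GASA9 overlaps AT1G22700 by 11 bases. The libraries were strand-specific, but whether the reads were also counted by strand was not tested.

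The leaf tip, which received the FR light, showed the clearest FRtip responses of the family. GASA6 rose early and fell late, GASA14 rose throughout, GASA9 fell throughout and GASA1 rose at 300 min. At 40 to 80 min, 2 of 6 tested members were higher and 1 was lower in FRtip, against 4.22% higher and 6.2% lower (10.4% in all) of the 19963 genes tested. At 100 to 180 min, 2 members were higher and 2 lower, against 12.4% and 16.8% of all genes (29.2% in all). At 300 min again 2 members were higher and 2 lower, against 5.25% and 5.48% (10.7% in all). GASA5 stayed below the mean of 1 normalized count that a gene needed to be tested. Differences are log2 of FRtip over WL on log2(normalized count + 1), with the standard error, from limma with Benjamini-Hochberg adjusted p over all genes tested. The members' median log2 difference in the leaf tip was 0.36, 0.23 and 0.38 in the 3 windows, beside -0.02, -0.01 and -0.01 over all genes.

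GASA6 integrates GA, abscisic acid and glucose signals in germinating seeds, and it was the member with the most reads in the leaf tip. At 60 min it held 2015, 2320.1, 2084 and 2167 normalized counts in FRtip, against 964, 1113, 1076 and 987 in WL. At 80 min it held 2242, 2479, 2188 and 2559 in FRtip, against 983, 1069, 1198 and 1076 in WL. FRtip samples were above all WL samples at each time point of 40 to 120 min. Here and below, such separation of the groups only describes the samples, since its share over all genes is not given. Over 40 to 80 min, GASA6 averaged 1987 ± 436 in FRtip (SD, n = 12) and 1014 ± 136 in WL (SD, n = 11), a log2 difference of 0.96 ± 0.10 (adjusted p = 3e-11). At 300 min the order was turned round: the FRtip samples held 213, 269, 220 and 322, all below the 407, 511, 583 and 413 of the WL samples. The log2 difference at 300 min was -0.90 ± 0.17 (adjusted p = 8.7e-05).

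Between these times the FRtip level of GASA6 declined step by step, while WL changed little before 300 min. The log2 difference was 0.83 ± 0.19 at 100 min, 0.60 ± 0.16 at 120 min, 0.18 ± 0.16 at 140 min, -0.15 ± 0.22 at 160 min and -0.28 ± 0.20 at 180 min. Averaged over 100 to 180 min, these values of opposite sign gave 0.24 ± 0.08 (adjusted p = 0.013), which was lost without replicate 3 (adjusted p = 0.079) or without replicate 4 (adjusted p = 0.077). The effect at 300 min minus that at 40 to 80 min was -1.86 ± 0.20 (limma, adjusted p = 3.3e-10), in a comparison chosen after the values were seen.

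GASA14 carries a long proline-rich stretch before its GASA domain and is known for effects on leaf expansion and on resistance to oxidative stress. It started near the lower end of detection in the leaf tip, with 11.9, 21.2, 19.2 and 31.4 normalized counts in FRtip at 60 min, against 7.76, 2.29, 11.1 and 3.72 in WL. At 140 min it held 79.5, 139, 116 and 121 in FRtip, against 16.5, 7.89, 9.30 and 13.6 in WL. By 300 min GASA14 had reached 222, 235, 229 and 295 in FRtip, against 51.2, 36.1, 46.1 and 51.9 in WL. The groups did not overlap at 7 of 9 time points, the exceptions being 40 and 80 min. The log2 difference was 0.86 ± 0.19 over 40 to 80 min (adjusted p = 0.00084), 2.50 ± 0.14 over 100 to 180 min (5.67-fold, adjusted p = 7.3e-22) and 2.38 ± 0.32 at 300 min (5.22-fold, adjusted p = 9.8e-08). The first of these was lost without replicate 2 (0.69, adjusted p = 0.066). By time point, the difference was largest at 140 min, with 3.19 ± 0.26. GASA14 also rose with time in WL. Its effect at 300 min exceeded that at 40 to 80 min by 1.53 ± 0.38 (adjusted p = 0.0045, a comparison chosen after the values were seen), and by 1.42 without replicate 3 (adjusted p = 0.052).

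GASA9 was the member whose leaf tip mean was lower in FRtip than in WL at every time point. At 180 min it held 95.2, 67.4, 97.3 and 99.8 normalized counts in FRtip, against 183, 183, 206 and 177 in WL. The samples of 300 min held 64.9, 29.7, 46.5 and 54.5 in FRtip, against 111, 95.2, 134 and 103 in WL. All FRtip samples lay below all WL samples at 7 of 9 time points, with overlap at 60 and 80 min. The log2 difference went deeper with time, with -0.42 ± 0.10 over 40 to 80 min (adjusted p = 0.0017), -0.72 ± 0.07 over 100 to 180 min (adjusted p = 7.4e-12) and -1.21 ± 0.17 at 300 min (adjusted p = 1.7e-07). The change between the early window and 300 min was -0.79 ± 0.19 (adjusted p = 0.0046, chosen after the values were seen), or -0.70 without replicate 3 (adjusted p = 0.095).

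GASA1, which is induced by GA and repressed by brassinosteroids, was called in the leaf tip at 300 min only among the windows tested there. At that time it held 90.5, 95.8, 65.7 and 105.6 normalized counts in FRtip, against 46.3, 31.7, 50.2 and 50.6 in WL, with no overlap. The log2 difference at 300 min was 0.99 ± 0.27 (adjusted p = 0.0085), and 0.79 without replicate 2 (adjusted p = 0.091) or 0.97 without replicate 4 (adjusted p = 0.055). At 40 to 80 min it was -0.24 ± 0.16 and at 100 to 180 min 0.22 ± 0.12, neither of which passed the test. The effect at 300 min minus that at 40 to 80 min was 1.23 ± 0.31 (adjusted p = 0.0062, chosen after the values were seen), or 0.99 without replicate 2 (adjusted p = 0.081) and 1.15 without replicate 4 (adjusted p = 0.060). At 180 min the FRtip replicate 3 alone held 317, while the other FRtip samples held 149, 112 and 153 and the WL samples 75.4 to 120.

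GASA4, a GA-induced gene of meristematic tissues, moved little. It averaged 150.1 ± 21.4 normalized counts in FRtip and 172 ± 31.9 in WL at 100 to 180 min (SD, n = 20 each), with wide overlap. Its log2 difference of -0.19 ± 0.07 (adjusted p = 0.043) was lost without replicate 2, 3 or 4 (adjusted p = 0.092, 0.086 and 0.25), without a filter on low values (adjusted p = 0.058) and in edgeR with TMM scaling (adjusted p = 0.073). GASA10, known from Arabidopsis as a cell wall protein, stayed between 0 and 7.35 normalized counts in the leaf tip and passed no FRtip test in any section. At such counts only large changes could have been seen. GASA5, which in Arabidopsis delays GA-promoted flowering, had no read in any of the 71 tested leaf tip samples, where a count of 0 allows up to 3 reads.

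**Figure D1:**
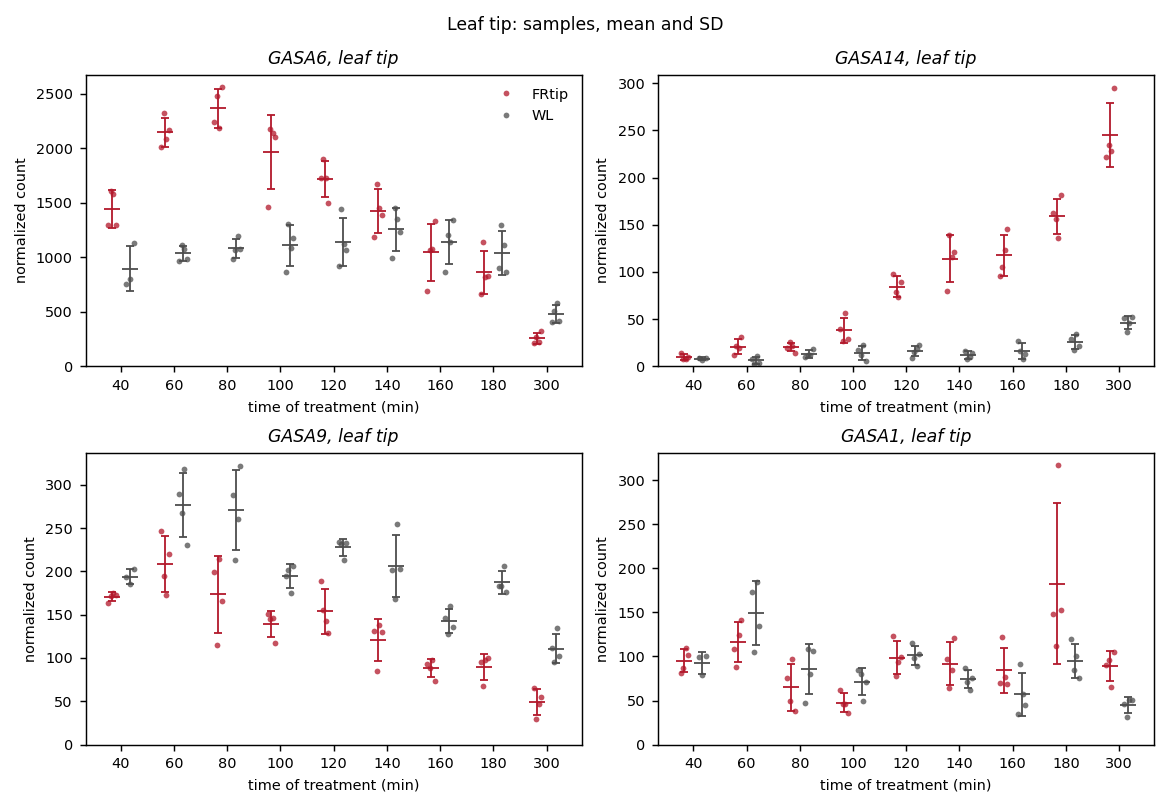
Normalized counts of GASA6, GASA14, GASA9 and GASA1 in the leaf tip by time of treatment in minutes (FRtip left and red, WL right and grey, points are samples, bars are mean and SD). GASA6 in FRtip is above WL to 120 min and below it at 300 min, GASA14 in FRtip reaches 222 to 295 at 300 min, and the mean of GASA9 in FRtip lies below that in WL at each time point. Time points are evenly spaced on the axis.

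By the rule of the study for differentially expressed genes (DEGs), an unadjusted p below 0.01 and a log2 difference beyond 0.3 at a single time point, the leaf tip had 12 calls up and 7 down among the 54 tested pairs of member and time point. These are 35.2% of the pairs, against 7.93% over all genes and time points. GASA14 was called up at 6 time points, GASA6 up at 5 and down at 1, GASA9 down at 6 and GASA1 up at 1. The petiole held 4 calls of 48 pairs on the abaxial side, where the rate over all genes was 3.79%, and 4 of 48 on the adaxial side, where it was 2.29%. Leaving out each replicate in turn gave 13 to 15 leaf tip calls, fewer than with all replicates. Without replicate 1 there were 7 abaxial calls, and without replicate 1, 2 or 4 there were 2 adaxial calls in each case. By the same rule edgeR made 10 abaxial and 9 adaxial calls with either scaling. The shares over all genes above are from limma with all replicates. Shares for edgeR or without a replicate are not given here, so those counts cannot be judged against them.

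In the petiole base, which received no added FR light, the member called higher by limma was GASA6 on the abaxial side and GASA14 on the adaxial side. Adaxial GASA6 was also higher in the FRtip mean at 7 of 8 time points, without passing the limma test. No member passed the limma test at 60 to 80 min on either side, where 0.01% of all genes did abaxially and 0.00501% adaxially. At an unadjusted p below 0.05, 1 member remained on each side, GASA6 abaxially and GASA14 adaxially, and edgeR called 0 on both. No share of all genes at that unadjusted p is given here. At 100 to 180 min, 1 of 6 was higher and 1 lower abaxially, against 5.77% and 4.38% of all genes (10.1% in all). Adaxially 1 was higher and 0 lower in that window, against 3.15% and 1.63% (4.78% in all). At 300 min, 1 of 6 was higher and 0 lower on each side, against 2.67% and 4.51% of all genes abaxially (7.19% in all) and 1.26% and 1.98% adaxially (3.24% in all).

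Abaxial GASA6 was low in WL and above WL in the FRtip mean at all 8 time points. At 60 min it held 80.0, 75.7, 52.6 and 44.7 normalized counts in FRtip, the value of 80.0 coming from the library between the sides, against 37.1, 20.4, 19.9 and 22.2 in WL. At 140 min it held 98.0, 84.6, 91.5 and 108 in FRtip, against 54.9, 36.1, 53.1 and 42.9 in WL. The 300 min samples held 118, 106, 168 and 109.9 in FRtip, against 56.7, 57.1, 66.6 and 37.4 in WL. The groups did not overlap at these times, as at 4 of the 8 time points in all, and FRtip was the higher group each time.

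Over 60 to 80 min the log2 difference of abaxial GASA6 was 0.88 ± 0.26 (adjusted p = 0.34), or 0.82 ± 0.27 without the library between the sides (adjusted p = 0.50). It was 0.87 ± 0.16 over 100 to 180 min (1.83-fold, adjusted p = 6.9e-05) and 1.20 ± 0.36 at 300 min (2.29-fold, adjusted p = 0.031). The last call was lost without replicate 1, 3 or 4, where the log2 difference was 1.25, 1.15 and 1.09 (adjusted p = 0.063, 0.13 and 0.23).

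On the adaxial side GASA6 was higher to begin with, and its FRtip difference was smaller. At 300 min it held 111, 94.5, 125 and 128 normalized counts in FRtip, against 61.8, 76.5, 88.3 and 48.9 in WL, without overlap. The log2 difference was 0.22 ± 0.17 over 60 to 80 min, 0.32 ± 0.11 over 100 to 180 min (adjusted p = 0.083) and 0.75 ± 0.25 at 300 min (adjusted p = 0.083). The adaxial value over 100 to 180 min passed the test in edgeR (0.32, adjusted p = 0.035 with the deposited size factors).

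GASA14 in the adaxial petiole rose above WL late. At 180 min it held 539, 411, 450.0 and 479.9 normalized counts in FRtip, against 325, 341, 338 and 394 in WL. It reached 1027, 1108, 1184 and 1219.6 at 300 min in FRtip, against 567, 791, 623 and 704 in WL. FRtip lay wholly above WL at 3 of 8 time points and wholly below it at 80 min. The log2 difference was -0.26 ± 0.09 over 60 to 80 min (adjusted p = 0.59), 0.26 ± 0.06 over 100 to 180 min (adjusted p = 0.0029) and 0.76 ± 0.13 at 300 min (1.70-fold, adjusted p = 9.6e-05). Without replicate 3, the middle value was 0.23 and did not pass (adjusted p = 0.12). The effect at 300 min exceeded that at 60 to 80 min by 1.03 ± 0.16 (adjusted p = 6.5e-05, chosen after the values were seen), where 1.79% of all genes were called.

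In the abaxial petiole GASA14 overlapped between FRtip and WL at all 8 time points. At 300 min it held 2111, 2432, 2345 and 2875 normalized counts in FRtip, against 1934, 2262, 1663 and 2667 in WL. Its log2 difference was -0.27 ± 0.15 over 60 to 80 min, or -0.15 ± 0.15 without the library between the sides, which held 232. It was 0.14 ± 0.10 over 100 to 180 min and 0.21 ± 0.21 at 300 min (adjusted p = 0.42 and 0.67).

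The remaining members passed few tests in the petiole. Abaxial GASA4 averaged 380.3 ± 74.3 normalized counts in FRtip and 439 ± 99.3 in WL at 100 to 180 min (SD, n = 20 each). Its log2 difference of -0.19 ± 0.06 (adjusted p = 0.040) was lost without replicate 1, 3 or 4 (adjusted p = 0.053, 0.32 and 0.20) and without a filter on low values (adjusted p = 0.054). All FRtip samples of GASA4 lay below all WL samples at 180 min on both sides, and above them abaxially at 60 min. GASA1 was lower in the FRtip mean at 7 of 8 abaxial time points, with all FRtip samples below all WL samples at 100 and 300 min. Its log2 difference of -0.27 ± 0.10 at 100 to 180 min did not pass (adjusted p = 0.090). GASA9, at 7.68 to 41.7 normalized counts abaxially, had log2 differences of 0.11 ± 0.21, 0.17 ± 0.13 and -0.04 ± 0.30 in the 3 windows, the first being 0.03 ± 0.22 without the library between the sides. GASA10 was at 0.49 ± 0.45 abaxially at 60 to 80 min, or 0.39 ± 0.47 without that library.

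**Figure D2:**
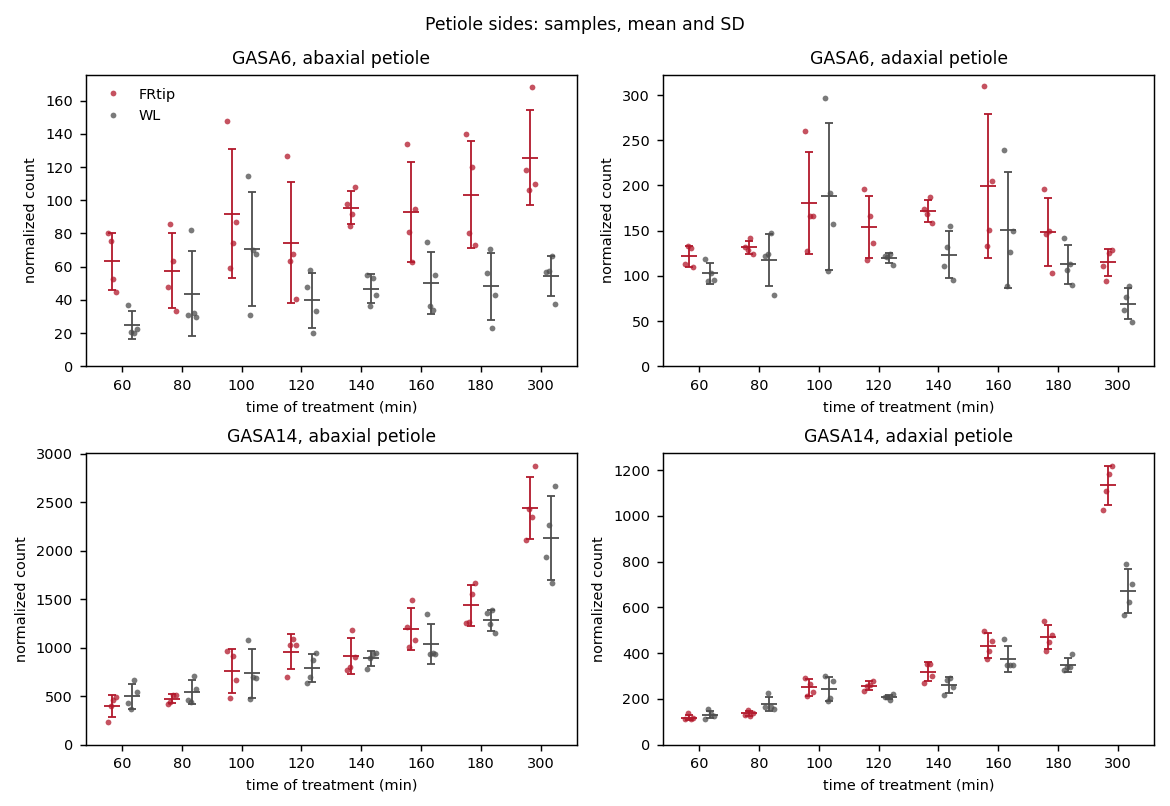
Normalized counts of GASA6 and GASA14 on the abaxial and adaxial side of the petiole by time of treatment in minutes (FRtip left and red, WL right and grey, points are samples, bars are mean and SD). Abaxial GASA6 in FRtip reaches 106 to 168 at 300 min, and adaxial GASA14 in FRtip reaches 1027 to 1219.6.

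**Figure D3:**
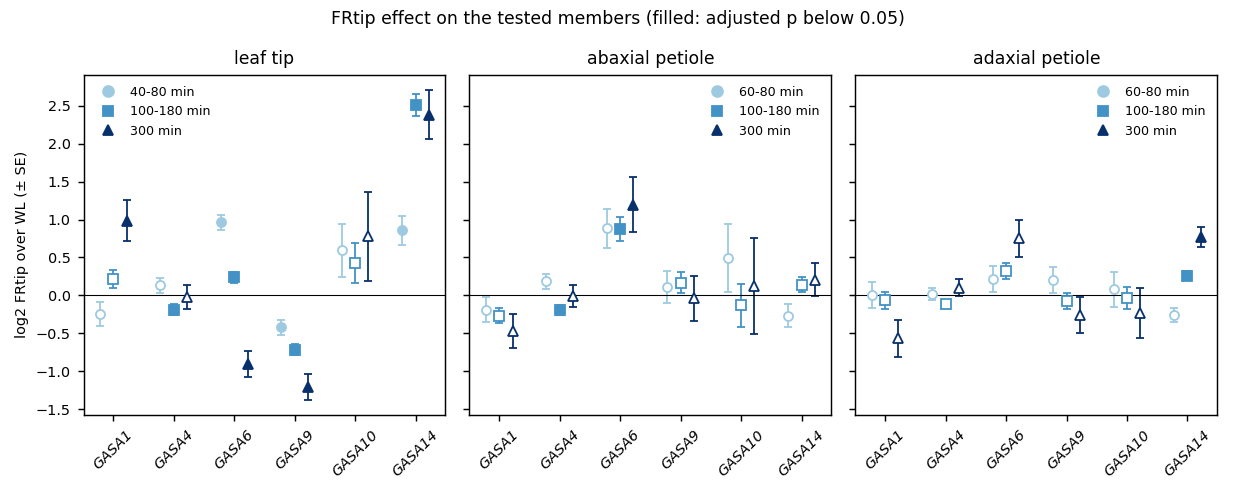
Log2 difference of FRtip over WL with its standard error for the 6 tested members, by window (marker) and section (panel), where filled markers have an adjusted p below 0.05. GASA14 reaches 2.50 in the leaf tip, GASA6 changes sign there between the early window and 300 min, and the abaxial petiole has GASA6 at 1.20 at 300 min.

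Whether the FRtip effect differed between sections was tested directly. In the leaf tip minus the abaxial petiole at 100 to 180 min, 2 of 6 members had a higher and 2 a lower effect, against 8.26% and 10.2% of all genes (18.5% in all). The effect was higher in the leaf tip for GASA14, by 2.36 ± 0.18 (adjusted p = 2.2e-21), and for GASA1, by 0.49 ± 0.16 (adjusted p = 0.023). It was lower in the leaf tip for GASA9, by -0.89 ± 0.16 (adjusted p = 2.8e-06), and for GASA6, by -0.64 ± 0.18 (adjusted p = 0.0057). For GASA6, the leaf tip effect in this window averages time points of opposite sign, as given above. Without replicate 3, the values of GASA1 and GASA6 were 0.40 and -0.55 and did not pass (adjusted p = 0.17 and 0.091), and without replicate 4 that of GASA1 did not (0.49, adjusted p = 0.095).

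Between the abaxial and the adaxial side at 100 to 300 min, no member's difference in FRtip effect passed the limma test without a block, where 0.466% of all genes had a higher and 0.371% a lower effect (0.837% in all). At an unadjusted p below 0.05 there was 1 member, GASA6, with 0.53 ± 0.18 (adjusted p = 0.18), and edgeR called 0. The share of all genes at that unadjusted p is not given here. With a block of treatment, time point and replicate number, GASA6 did pass the limma test. Its call between the sides thus depended on whether equal numbers were paired. The effect on GASA14 differed by -0.19 ± 0.10 (adjusted p = 0.59), so a difference between the sides was not shown for it. In the abaxial petiole no member's effect changed between 60 to 80 and 300 min, at an adjusted or an unadjusted p in limma or in edgeR, where limma called 4.21% of all genes. In the leaf tip, the effect at 300 min minus that at 40 to 80 min was called in 2 members higher and 2 lower, against 4.24% and 3.5% of all genes (7.74% in all).

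In WL the members had distinct places. Over 60 to 300 min, all 6 tested members differed between the leaf tip and the petiole, 2 being higher and 4 lower in the leaf tip, against 38.1% and 46.8% of all genes (84.9% in all). All 6 also differed between the petiole sides, 2 being higher and 4 lower abaxially, against 32% and 35% (67.1% in all). GASA6 and GASA9 were highest in the leaf tip, then in the adaxial and lowest in the abaxial petiole. GASA14 and GASA1 ran the other way, from the abaxial through the adaxial petiole to the leaf tip. GASA4 and GASA10 were highest adaxially and lowest in the leaf tip.

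GASA6 averaged 1035 ± 268 normalized counts in the leaf tip, 47.3 ± 21.5 abaxially and 123 ± 48.6 adaxially (SD, n = 32 each). Its lowest leaf tip sample, at 407, was above its highest petiole sample, at 297. The leaf tip was above the petiole by 3.79 ± 0.08 on the log2 scale (13.8-fold, adjusted p = 3.8e-86), and the abaxial side differed from the adaxial side by -1.40 ± 0.11 (adjusted p = 2.1e-21). GASA9 averaged 202 ± 59.5 in the leaf tip, 20.9 ± 7.41 abaxially and 57.9 ± 13.7 adaxially. Its leaf tip and petiole samples did not overlap, and the log2 differences were 2.49 ± 0.07 for leaf tip over petiole and -1.47 ± 0.10 for abaxial over adaxial (adjusted p = 8.8e-69 and 2.7e-26).

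GASA14 averaged 18.7 ± 13.0 normalized counts in the leaf tip, 988 ± 535 abaxially and 302 ± 167 adaxially (SD, n = 32 each). The highest leaf tip sample, at 51.9, was below the lowest petiole sample, at 113. The log2 difference of leaf tip over petiole was -4.91 ± 0.07 (adjusted p = 3.2e-108), and that of abaxial over adaxial was 1.71 ± 0.06 (3.28-fold, adjusted p = 2.2e-44). GASA1 averaged 84.8 ± 35.8 in the leaf tip, 242 ± 93.0 abaxially and 127 ± 46.2 adaxially, and its samples overlapped between all sections, the leaf tip and adaxial means lying within a joint SD. Its log2 differences were -1.06 ± 0.08 for leaf tip over petiole and 0.92 ± 0.08 for abaxial over adaxial (adjusted p = 1.6e-27 and 1.4e-17).

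GASA4 averaged 169 ± 55.0 normalized counts in the leaf tip, 465 ± 176 abaxially and 514 ± 188 adaxially (SD, n = 32 each). The sides differed by -0.16 ± 0.05 on the log2 scale, abaxial over adaxial, which passed the test (adjusted p = 0.0018) but is small beside the spread over samples. GASA10 averaged 1.44 ± 1.76 in the leaf tip, 7.74 ± 4.81 abaxially and 11.2 ± 4.11 adaxially. The mesophyll and abaxial identity sums given above moved with the section as well, and their part in these differences was not tested. GASA5 had a read in 7 of the 204 samples, 1 in each, and all of these were petiole samples.

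Per kilobase of annotated exon, GASA6 was the highest member in the WL leaf tip, with 1137 ± 294 normalized counts per kb, and GASA9 followed with 264 ± 77.8 (SD, n = 32). In the abaxial petiole GASA14 and GASA4 were highest, with 495 ± 268 and 467 ± 177 per kb, which is within their spread. In the adaxial petiole GASA4 was highest, with 516 ± 189 per kb, before GASA1 with 167 ± 60.8 and GASA14 with 151 ± 83.8, which lay within their spread of each other. Whether reads scaled with transcript length in these libraries was not tested, and these ranks hold only if they did. Undivided, GASA14 averaged 988 and GASA4 465 normalized counts abaxially, and GASA14 302 and GASA1 127 adaxially.

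**Figure D4:**
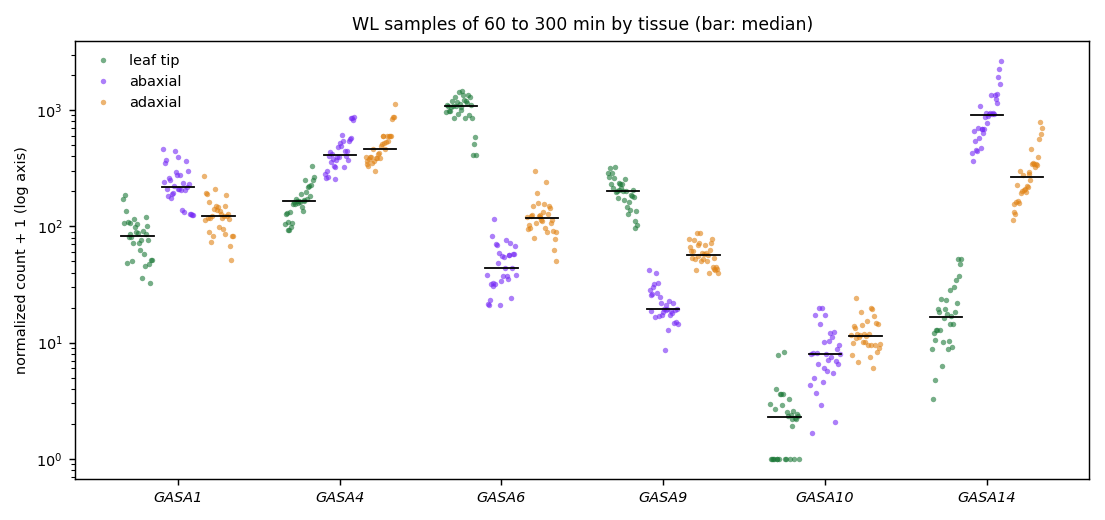
Normalized count plus 1 (log axis) of the 6 tested members in the WL samples of 60 to 300 min by section, 32 samples each, where the bar is the median. GASA6 and GASA9 are highest in the leaf tip, and GASA14 has its lowest petiole sample at 113 and its highest leaf tip sample at 51.9.

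Several members also changed over the hours in WL, the background against which FRtip was read. From 60 to 80 min on to 300 min, 2 of 6 members rose and 3 fell in the leaf tip, against 13.3% and 15.2% of all genes (28.5% in all). Abaxially 2 rose and 1 fell, against 11.7% and 13.5% (25.2% in all), and adaxially 2 rose and 2 fell, against 11.6% and 10.6% (22.2% in all). GASA14 and GASA4 rose and GASA1 fell in all 3 sections. GASA14 at 300 min was above its level at 60 to 80 min by 2.33 ± 0.28 in the leaf tip, 2.04 ± 0.19 abaxially and 2.13 ± 0.11 adaxially on the log2 scale (adjusted p = 6.4e-10, 4.6e-13 and 6.4e-22). For GASA4 these values were 1.27 ± 0.14, 1.35 ± 0.12 and 1.32 ± 0.10 (adjusted p = 4.3e-11, 4.6e-13 and 5.5e-16).

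GASA1 fell by 1.29 ± 0.23 in the leaf tip, 1.14 ± 0.20 abaxially and 1.08 ± 0.21 adaxially (adjusted p = 9.6e-06, 8.9e-06 and 7e-05). GASA6 and GASA9 fell in the leaf tip, by 1.16 ± 0.15 and 1.30 ± 0.14 (adjusted p = 3.6e-09 and 7.2e-11). GASA6 also fell adaxially, by 0.68 ± 0.21 (adjusted p = 0.015), a call lost without replicate 3 (adjusted p = 0.054) or 4 (adjusted p = 0.088). In the abaxial petiole GASA6 was at 0.77 ± 0.31 (adjusted p = 0.065). Time of day and time since the start of treatment cannot be told apart here.

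**Figure D5:**
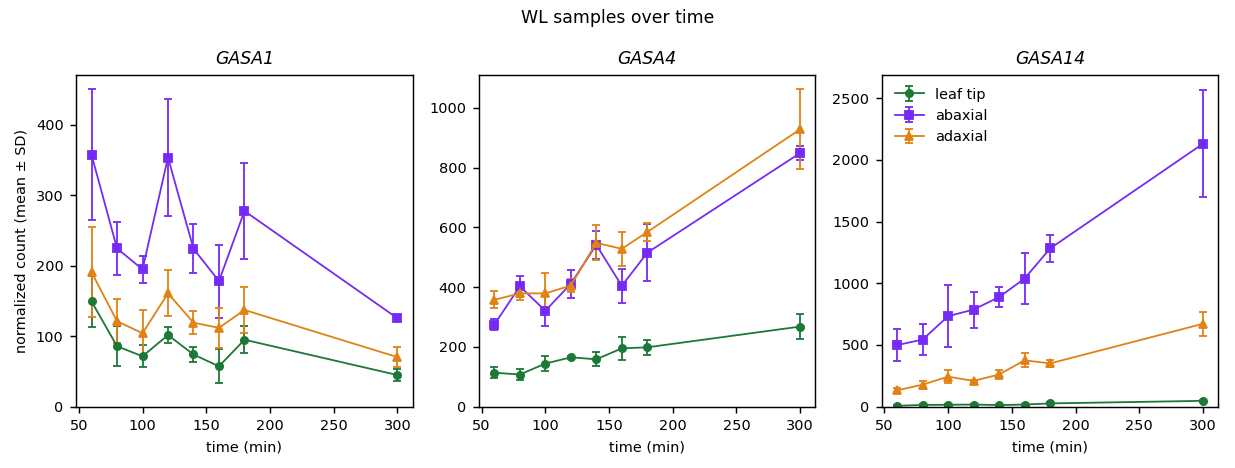
Normalized counts (mean and SD) of GASA1, GASA4 and GASA14 in WL by time in minutes, a line per section, with 4 samples a point. GASA14 rises to a mean of 2132 in the abaxial petiole and GASA4 to 929 in the adaxial petiole at 300 min, while GASA1 moves up and down and is lower at 300 min than at 60 to 80 min in each section.

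The annotation holds 8 other loci of the family list, of which 1 passed the filter on low values. AT2G14900, annotated as a gibberellin-regulated family protein, was nearly absent from the leaf tip, with 0 to 5.25 normalized counts in WL, and averaged 183 ± 26.6 abaxially and 124 ± 24.2 adaxially in WL (SD, n = 32 each). Its abaxial mean at 100 to 180 min was 229 ± 47.2 in FRtip and 181 ± 28.9 in WL (SD, n = 20 each), a log2 difference of 0.32 ± 0.07 (adjusted p = 0.00070). It passed no other FRtip test. The other 7 loci had at most 7 reads in any sample.

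Genes of GA synthesis and perception were read beside the family in the same fits. Of 14 GA synthesis genes, 9 were tested. In the leaf tip, 2 of the 9 were higher and 0 lower at 40 to 80 min, where 4.22% of all genes were higher and 6.2% lower. At 100 to 180 min, 2 were higher and 2 lower there, against 12.4% and 16.8% of all genes, and at 300 min 1 was higher and 0 lower, against 5.25% and 5.48%. In the petiole at 100 to 180 min, 3 were higher and 0 lower abaxially, against 5.77% and 4.38% of all genes, and 4 were higher and 0 lower adaxially, against 3.15% and 1.63%. GA20OX3, of the same enzyme group as GA20OX1, was higher in the FRtip leaf tip in each window (3.72 ± 0.25, 2.72 ± 0.19 and 2.36 ± 0.43). GA1, which acts at the first step of the pathway, was higher at 100 to 180 min in the leaf tip (1.24 ± 0.28). GA20OX1, which makes GA precursors, was lower in the FRtip leaf tip (-0.84 ± 0.18) and higher in the FRtip petiole at 100 to 180 min (0.80 ± 0.10 abaxially, 0.56 ± 0.09 adaxially). GA3OX1, which makes active GA, was at 1.10 ± 0.16 in the leaf tip at 40 to 80 min and at -0.74 ± 0.12 there at 100 to 180 min. Abaxially GA3OX1 was at 1.51 ± 0.20 and adaxially at 1.10 ± 0.13 at 100 to 180 min. GA20OX2 rose abaxially by 2.18 ± 0.20, with 23.02 ± 17.6 normalized counts in FRtip and 3.77 ± 3.25 in WL (SD, n = 20 each).

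Of 7 genes of GA inactivation, 5 were tested, and 1 was higher and 0 lower in the leaf tip in each window, GA2OX6, beside the same shares of all genes. It averaged 92.2 ± 29.2 normalized counts in FRtip and 4.99 ± 4.98 in WL leaf tips at 100 to 180 min (SD, n = 20 each), a log2 difference of 4.48 ± 0.33. GA2OX8 rose in the abaxial petiole, by 1.82 ± 0.18 at 100 to 180 min and 1.70 ± 0.39 at 300 min, where GA2OX6 was called too, beside 2.67% of all genes higher and 4.51% lower at that time. Of 10 genes of GA perception and DELLA function, 5 were higher and 1 lower in the leaf tip at 40 to 80 min, where 4.22% of all genes were higher and 6.2% lower. At 100 to 180 min, 4 were higher and 2 lower there, against 12.4% and 16.8%. In that window 2 were higher and 1 lower abaxially, against 5.77% and 4.38%, and 2 were higher and 0 lower adaxially, against 3.15% and 1.63%. GAI, a DELLA protein gene, was higher in the leaf tip by 1.68 ± 0.08 at 40 to 80 min and 1.28 ± 0.06 at 100 to 180 min, and RGL3, another DELLA gene, was higher by 1.48 ± 0.36 and 1.65 ± 0.27. In the petiole at 100 to 180 min, RGL3 was higher by 0.97 ± 0.14 abaxially and 0.84 ± 0.23 adaxially, and GAI by 0.40 ± 0.07 and 0.31 ± 0.08. All these differences had adjusted p-values below 0.05 in limma. The median log2 difference of the tested GA synthesis genes was -0.13 in the leaf tip, 0.09 abaxially and 0.06 adaxially at 100 to 180 min, beside -0.01 over all genes in each section.

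The pattern of each member over 48 group means of section, treatment and time point was set beside those of 16036 genes averaging 10 or more normalized counts. GASA14 was most like IAA9, an auxin-responsive repressor gene, with Pearson r = 0.97, and UCP5, a mitochondrial carrier gene, with r = 0.96. GASA9 was most like CYCP2;1, a cyclin gene, and CHLM, which encodes an enzyme of chlorophyll synthesis, with r = 0.98 each. GASA6 was most like AT3G29760 and TBL27, a xyloglucan acetylation gene, with r = 0.97 each. GASA4 was most like MET1, the maintenance DNA methyltransferase gene, with r = 0.96, and HPT1, a vitamin E synthesis gene, with r = 0.96. GASA1 had looser partners, UBC28, a ubiquitin-conjugating enzyme gene, with r = 0.88 and FEI1, a receptor kinase gene, with r = 0.86. GASA5 and GASA10 were too low for such a search. Among the members, GASA6 and GASA9 ran together (r = 0.90), and GASA14 ran against GASA9 (r = -0.96) and GASA6 (r = -0.85). These values describe means that share libraries and are dominated by differences between sections.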

How the data were processed

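Wild type sections were sequenced by the authors with BrAD-seq, a strand-specific mRNA library method. The deposited signal values are read counts per TAIR10 gene divided by a DESeq2 size factor per sample. The submitters' processing notes name FastQC, STAR, Picard, HTSeq and DESeq, and versions are not given in the sources used here. All values (100.0%, tolerance 1e-06) divided evenly by what 1 read is worth in their sample, and whole reads were recovered in this way for edgeR. No 2 replicates agreed within counting noise (298 pairs, lowest ratio of squared difference to noise 1.18).

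R 4.3.3 with limma 3.58.1 was used on log2(normalized count + 1) for 19963 genes with a mean of at least 1 over 204 samples. Fits held a mean per section, treatment and time point, tests were two-sided contrasts, and p-values were adjusted by Benjamini-Hochberg, with a threshold of 0.05. The script was tested on simulated data. The members and gene lists were chosen with earlier results of these data known. All 7 members were to be named, with the genes of each GA list that passed the test and were among its 3 largest changes at 100 to 180 min, and the 2 genes most like each member. Comparisons of 300 min with the early window and the fit without the library between the petiole sides were added after the values were seen. Promoters came from RefSeq TAIR10.1 by locus tag. GASA9 and GASA10 are named by locus, since RefSeq gives them no symbol. The published comparison tables were not used. The fits were repeated with a pseudocount of 0.5 or 5, with a minimum mean of 10, without a filter, with median centring, with the replicate as a block, without each replicate in turn, and in edgeR 4.0.16 with deposited size factors or TMM. Counting intervals cover counting error only.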

Additional observations from a re-analysis of the deposited data

Results flagged for a closer look

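The FRtip effect differed between the leaf tip and the abaxial petiole at 100 to 180 min in 4 members, by 0.49 for GASA1, -0.64 for GASA6, -0.89 for GASA9 and 2.36 for GASA14 (log2, limma). For GASA6, the leaf tip effect in that window averaged time points of opposite sign. Between the early window and 300 min the FRtip effect differed in the leaf tip by 1.23 for GASA1, -1.86 for GASA6, -0.79 for GASA9 and 1.53 for GASA14. In the adaxial petiole it differed by 1.03 for GASA14.

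By Dixon's criterion, 27 single samples stood far from the other 3 of their group, in 294 groups checked, which is 9.18%, where chance gives about 1 in 20 groups. In GASA6 these were FRtip replicate 1 in the leaf tip at 100 min (1461 normalized counts, the others 2100 to 2178), abaxial WL replicate 1 at 60 min (37.1) and abaxial WL replicate 2 at 80 min (82.3, the others 29.9 to 31.8). In GASA14 they were abaxial FRtip replicate 1 at 120 min (696), abaxial WL replicate 1 at 160 min (1343), adaxial WL replicate 2 at 80 min (225) and adaxial WL replicate 1 at 160 min (460.4). In GASA9 they were the leaf tip in FRtip, replicate 2, at 140 min (84.7) and 180 min (67.4) and in WL at 120 min (213). They were also abaxial FRtip at 140 min (32.4), 180 min (15.6) and 300 min (10.8), abaxial WL at 140 min (7.68) and adaxial FRtip at 160 min (100.96).

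In GASA1 they were abaxial WL at 140 min (276), adaxial WL at 120 min (209) and 180 min (186) and the leaf tip in FRtip at 160 min (122). In GASA4 they were adaxial FRtip at 60 min (266), adaxial WL at 180 min (539.8) and 300 min (1129) and the leaf tip in WL at 100 min (106). In GASA10, near the lower end of detection, they were adaxial FRtip at 140 min (9.31) and the leaf tip in WL at 60 min (1.94), 120 min (7.35) and 300 min (0).

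In the petiole samples of 40 min, which entered no test, some members were higher in the single FRtip library of a side than in its WL libraries and others were not. Abaxially the higher ones were 152 for GASA1, 349.8 for GASA4, 47.6 for GASA6, 27.8 for GASA9 and 11.9 for GASA10, against 134, 266, 35.9, 25.3 and 7.58 in the single WL library. Abaxial GASA14 was lower, with 235 in FRtip against 508 in WL. Adaxially the higher ones were 109 for GASA1, 87.9 for GASA9 and 14.9 for GASA10, against at most 107, 61.5 and 13.3 in the WL libraries. Adaxial GASA4 was lower, with 368 in FRtip against 378 and 406 in WL. Adaxial GASA6, with 121 in FRtip against 111 and 140.2 in WL, and GASA14, with 97.6 against 79.2 and 152, lay between the WL libraries.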

How the results depend on the processing

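Of 1427 values of single members under an alternative, 1385 kept their direction and their side of the threshold, 27 lost and 15 gained the call, and none that was called changed sign. The count of members called moved by more than 1.5 times in 26 of 278 alternatives. Without a filter, 1 member was called in the abaxial petiole at 100 to 180 min (2 reported, GASA4 lost). In the adaxial petiole at 100 to 180 min, edgeR with either scaling called 2 members (1 reported, GASA6 gained). By the DEG rule, edgeR with either scaling made 10 abaxial and 9 adaxial calls (4 reported for each). The shares of all genes under these alternatives are not given here, and the causes were not tested. Leaving out each replicate gave 2 to 4 members in the leaf tip at 100 to 180 min, 1 to 2 abaxially at 100 to 180 min and 0 to 1 at 300 min, and 0 to 1 adaxially at 100 to 180 min. It gave 2 to 4 for leaf tip minus abaxial effects and 2 to 4 for 300 min minus 40 to 80 min in the leaf tip. By the DEG rule it gave 13 to 15 leaf tip, 3 to 7 abaxial and 2 to 3 adaxial calls. Without abaxial FRtip replicate 1 at 60 min, no count of members changed.

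Neither the labels nor the methods say that equal replicate numbers mark the same leaves or a shared batch, so the numbers were not taken to pair the samples. Not every pair correlated above 0.1, but such correlations cannot settle whether samples were paired. Deviations of FRtip and WL samples with the same number correlated at -0.181 to 0.349 in the leaf tip, -0.0640 to 0.410 abaxially and 0.0175 to 0.286 adaxially, above 0.1 in 11 of 35, 24 of 32 and 27 of 32 pairs. Between the petiole sides they correlated at -0.0678 to 0.392, above 0.1 in 49 of 64 pairs. With the replicate block, 2 members were called adaxially at 100 to 180 min and 2 at 300 min (1 reported for each, GASA6 gained), and 5 between 300 and 60 to 80 min in abaxial WL (3 reported). With a block of treatment, time point and number, 1 member, GASA6, differed in FRtip effect between the petiole sides (0 reported, log2 difference 0.53, limma adjusted p = 0.0063). Blocks changed the calls of 7 values in all. Depth limits GASA10 and GASA5, whose few reads could show only large changes.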

Other observations

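GASA6 in the petiole was high in replicate 1 at 100 and 160 min in both treatments and on both sides. At 100 min, replicate 1 held 148 normalized counts in abaxial FRtip, where the other samples held 59.0 to 87.0, and 115 in abaxial WL, where the others held 30.7 to 69.8. Adaxially at 100 min it held 260.3 in FRtip (others 128 to 166) and 297 in WL (others 106 to 192). At 160 min, replicate 1 held 134 in abaxial FRtip (others 62.6 to 94.4), 74.6 in abaxial WL (others 34.1 to 55.2), 309.7 in adaxial FRtip (others 133 to 205) and 239.5 in adaxial WL (others 88.7 to 149.9).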
